A study of Mus musculus with 5 samples.

Results

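Keratins and the proteins of the cornified envelope build the skin surface, the hair and the nail, and they are not genes that a fat cell is known for. They were examined here in 3T3-L1 adipocytes as a set of transcripts for which little signal is awaited. The set was defined by gene symbol, with earlier results of these data known, among them the Lce1d difference. It holds every probe set with 1 symbol that starts with Krt and a digit (keratins), Krtap (keratin-associated proteins), Lce (late cornified envelope proteins) or Sprr (small proline-rich proteins). This gave 133 genes, each with 1 probe set, of 19505 genes with a symbol and 22206 probe sets in all. The 133 comprise 49 keratins, 50 keratin-associated, 21 late cornified envelope and 13 small proline-rich genes. RefSeq types 3 of them, Krt74, Sprr2g and Sprr2j-ps, as transcribed pseudogenes. Lce1d was singled out from the rest because its group difference was already known, so its difference is given as a description.

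The arrays are 5 Affymetrix Clariom S mouse arrays, each hybridised with RNA of 1 culture sample of 3T3-L1, a mouse fibroblast line that forms fat cells under hormonal induction. All samples were taken through adipogenic differentiation over 7 days (IBMX at 0.5 mM, dexamethasone at 1 µM and insulin at 5 µg/mL, then insulin alone, then basal medium). They were afterwards held for 72 h in RPMI-1640 with 10% serum. The exposed group (3 arrays) shared this medium, across 0.4 µm pores, with MM.1S, a line of human myeloma cells, and the control group (2 arrays) had no myeloma cells. The design sets adipocytes that share medium with myeloma cells, without contact, against adipocytes alone. The labels record no membrane for the control group, so the membrane and the myeloma cells cannot be told apart. Both groups come from 1 cell line, and the labels do not say that replicates were separate cultures. Any p-value therefore only sets a group difference against the variation between these samples, and that variation may be technical.

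Keratins are intermediate filament proteins that assemble as pairs of an acidic type I and a basic type II chain. Simple epithelia use Krt8 with Krt18, the basal epidermis uses Krt5 with Krt14, and the upper epidermis uses Krt1 with Krt10, whereas separate keratins serve the hair shaft and its sheath. Keratin-associated proteins fill the space between filaments in the hair shaft. Late cornified envelope and small proline-rich proteins are crosslinked by transglutaminases beneath the membrane of dying keratinocytes, and their genes lie side by side in the epidermal differentiation complex.

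Promoter sequences show how close these genes are to one another and what they have in common beyond their names. RefSeq (GRCm38.p6) gave a window of 300 bases for 113 of the 133 genes, which ends 50 bases after the gene's start. Lce1d is shown because the largest difference was found there, Lce1a2 because its window is the most like that of Lce1d, Sprr2b for the motifs of the small proline-rich genes, and Krtap3-2 with Krtap3-3 because their probe sets held identical values. Capitals mark matches to 2 motifs searched on both strands. One is TATAAA, the core promoter element that places the start site, and the other is TGAGTCA, an AP-1 site.
Lce1d, chr3:92687161-92687460, minus strand: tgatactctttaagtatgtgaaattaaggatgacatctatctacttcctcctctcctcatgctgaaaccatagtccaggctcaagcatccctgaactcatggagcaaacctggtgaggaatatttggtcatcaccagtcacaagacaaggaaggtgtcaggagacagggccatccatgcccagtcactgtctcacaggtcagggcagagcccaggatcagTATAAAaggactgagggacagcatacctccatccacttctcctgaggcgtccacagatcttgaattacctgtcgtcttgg
Lce1a2, chr3:92670266-92670565, minus strand: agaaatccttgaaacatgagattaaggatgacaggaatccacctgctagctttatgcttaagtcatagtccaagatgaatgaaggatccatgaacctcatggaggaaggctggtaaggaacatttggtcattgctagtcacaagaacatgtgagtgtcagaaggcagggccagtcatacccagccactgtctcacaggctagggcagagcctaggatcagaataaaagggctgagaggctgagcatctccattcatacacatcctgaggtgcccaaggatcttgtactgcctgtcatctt
Sprr2b, chr3:92316455-92316754, plus strand: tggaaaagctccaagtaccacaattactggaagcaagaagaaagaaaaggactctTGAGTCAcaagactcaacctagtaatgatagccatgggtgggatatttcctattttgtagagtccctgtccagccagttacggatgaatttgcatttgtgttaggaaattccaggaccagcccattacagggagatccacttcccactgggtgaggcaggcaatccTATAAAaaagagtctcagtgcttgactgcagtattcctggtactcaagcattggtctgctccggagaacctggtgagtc
Krtap3-2, chr11:99556804-99557103, minus strand: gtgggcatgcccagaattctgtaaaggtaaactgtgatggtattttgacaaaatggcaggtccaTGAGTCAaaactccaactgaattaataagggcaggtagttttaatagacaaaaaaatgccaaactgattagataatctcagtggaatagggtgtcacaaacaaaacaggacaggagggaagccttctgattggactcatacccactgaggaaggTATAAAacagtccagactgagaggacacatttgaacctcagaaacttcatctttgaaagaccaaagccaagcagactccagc
Krtap3-3, chr11:99550814-99551113, minus strand: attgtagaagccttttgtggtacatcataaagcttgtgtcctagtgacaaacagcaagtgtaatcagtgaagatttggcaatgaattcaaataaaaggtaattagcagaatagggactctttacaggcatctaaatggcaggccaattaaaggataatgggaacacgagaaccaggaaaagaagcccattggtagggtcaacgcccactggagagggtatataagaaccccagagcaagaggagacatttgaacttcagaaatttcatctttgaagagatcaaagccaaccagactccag

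In the Lce1d window the core promoter element starts at base 221. The window of Lce1a2 was 74% identical to it in a global alignment and holds neither motif, and neither is found in that of Krtap3-3. Identity to Lce1d was lower for every other Lce1 window, down to 53.5% for Lce1l. Windows of Lce3 and Lce6 genes gave 51.2% (Lce3b) to 54.4% (Lce6a) in the same alignment, so the lowest Lce1 values lie within that range. TATAAA was found in 70 of the 113 windows (61.9%), against 13.6% of all 32851 windows of this length. The share was highest among root sheath keratins (7 of 7), small proline-rich genes (10 of 11) and cysteine-rich keratin-associated genes (28 of 33), and only 2 of 13 Lce1 windows held it. TGAGTCA was found in 13 windows (11.5%, against 5.20% of all), 8 of them among the 11 small proline-rich genes. The letters GCCNNNGGC, an AP-2 site, were found in 10 windows (8.85%, against 16.6% of all). These matches describe letters in the windows and say nothing of whether a factor bound there.

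Adipocyte markers were measured as a check of the label, and all 13 lay above the median of all probe sets. They had mean levels from 5.81 to 12.4 on the log2 scale, with a median of 9.90. Fabp4, the fatty acid carrier, had a mean of 12.37 ± 0.03 (SD, n = 3) in exposed and 12.37 ± 0.05 (SD, n = 2) in control samples. Adiponectin (Adipoq) followed at 11.57 ± 0.17 and 11.58 ± 0.04, the adipogenic factor Pparg at 10.99 ± 0.05 against 10.97 ± 0.02. The droplet coat gene Plin1 was at 9.58 ± 0.43 against 9.83 ± 0.09. Several defining keratinocyte genes were below the median of all probe sets, among them involucrin (Ivl) with 2.11 ± 0.13 (SD, n = 3) in exposed and 2.35 ± 0.25 (SD, n = 2) in control samples, loricrin (Lor) at 4.25 ± 0.21 against 4.08 ± 0.06, and the desmosomal cadherin Dsg3 at 2.38 ± 0.09 against 2.50 ± 0.08. Not all were low. Trp63, the master regulator of stratified epithelia, was at 5.48 ± 0.30 against 5.71 ± 0.09, and suprabasin (Sbsn), a gene of the upper epidermis, reached 9.75 ± 0.09 against 9.62 ± 0.04. Dsg3 and Sbsn were named after their values were seen. In bulk RNA, fewer cells of a type and less RNA per cell cannot be told apart.

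Most keratin and envelope genes had low array values, but they did not sit at the very bottom of the scale. Their levels (mean over 5 arrays) had a median of 3.49 and ran from 1.92 for Sprr2h to 7.03 for Krtap4-8. The median of all probe sets was 4.81. Of the 133 genes, 100 (75.2%) lay at or below that median and 50 (37.6%) in the lowest of 4 equal level classes of all probe sets, at or below 3.11. Only Krtap4-8 lay in the highest level class, above 6.85.

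**Figure D1:**
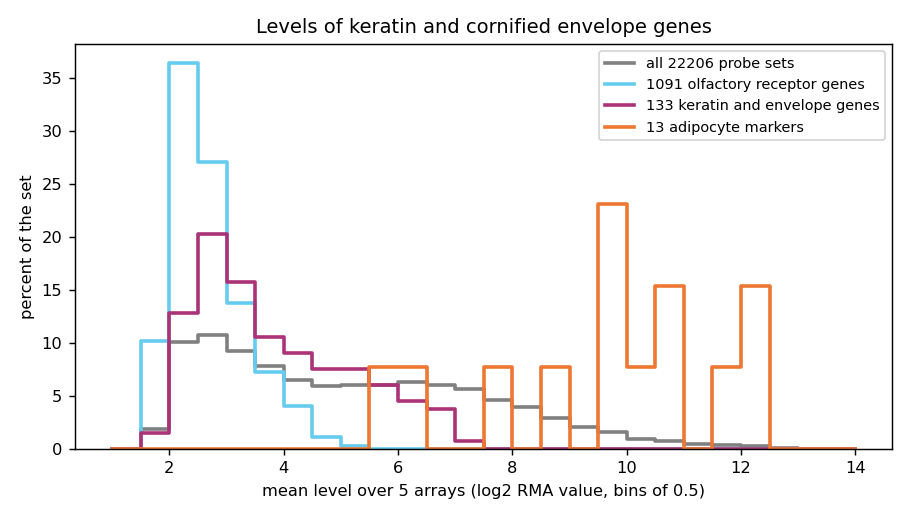
Distribution of mean levels (x axis, log2 RMA value in bins of 0.5) as the percent of each set (y axis) for the 133 keratin and envelope genes, 1091 olfactory receptor genes, 13 adipocyte markers and all 22206 probe sets. The keratin and envelope genes peak low like the olfactory receptors but keep a tail to 7.03, and the adipocyte markers lie mostly above 8.

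Olfactory and vomeronasal receptors, sensory genes that adipocytes are likewise not known for, lay lower. The 1091 olfactory receptor genes had a median level of 2.55 and a maximum of 5.06, and 77.9% of them fell in the lowest class. The 321 vomeronasal receptor genes had a median of 2.37, and 91.6% of them fell there. Levels of different probe sets depend on their probes as well as on RNA, so these are distributions of array values and not an order of RNA amounts. By gene type, the median level was 3.29 for keratins, 3.78 for keratin-associated genes, 3.79 for late cornified envelope genes and 4.59 for small proline-rich genes. The table has no detection calls, so no member could be marked as present or absent.

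Exact ties between arrays were common among these genes. In 43 genes (32.3%) 2 or more of the 5 arrays carried 1 value, against 27.2% of all probe sets. In the lowest level class the share was 34.0% for the 50 members there and 36.6% for all probe sets there. Lce3b had 2 distinct values in 5 arrays, 3.55 on exposed array 2 and 3.40 on the other 4. Krtap5-4 read 4.76 on control array 1 and 4.8 on each of the other 4. Lce1k read 3.99 on all 3 exposed arrays, against 3.97 and 3.88 on the control arrays, so its groups are separated by a tie on one side. The share of ties was highest in late cornified envelope 3 and 6 genes (3 of 7), hair keratins (5 of 12) and cysteine-rich keratin-associated genes (15 of 36). Krtap3-2 and Krtap3-3 carried identical values on all 5 arrays (6.93, 6.52 and 6.57 on the exposed arrays and 6.52 and 6.50 on the control arrays). Their promoter windows above were 63.3% identical, and their array values cannot be counted as separate measurements.

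The spread between arrays of a group was wide for some of these genes. The within-group SD (pooled over both groups) had a median of 0.22 log2 units, against 0.19 over all probe sets, and it exceeded 0.5 for 11 of 133 genes (8.27%) against 2.54% of all probe sets. In the lowest level class the median was 0.197 for members and 0.205 for all probe sets there, and in the second 0.252 and 0.233. An SD over 0.5 was found for 12% of members against 2.83% in the lowest class, and for 8% against 4.83% in the second. The highest value belonged to the hair keratin Krt36 at 0.60, followed by Krtap22-2 and the corneal keratin Krt12 at 0.57 each. The lowest was 0.016, for Krt31 and for Krtap5-4. By gene type the median SD was 0.27 for keratins, 0.24 for late cornified envelope, 0.21 for keratin-associated and 0.15 for small proline-rich genes.

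**Figure D2:**
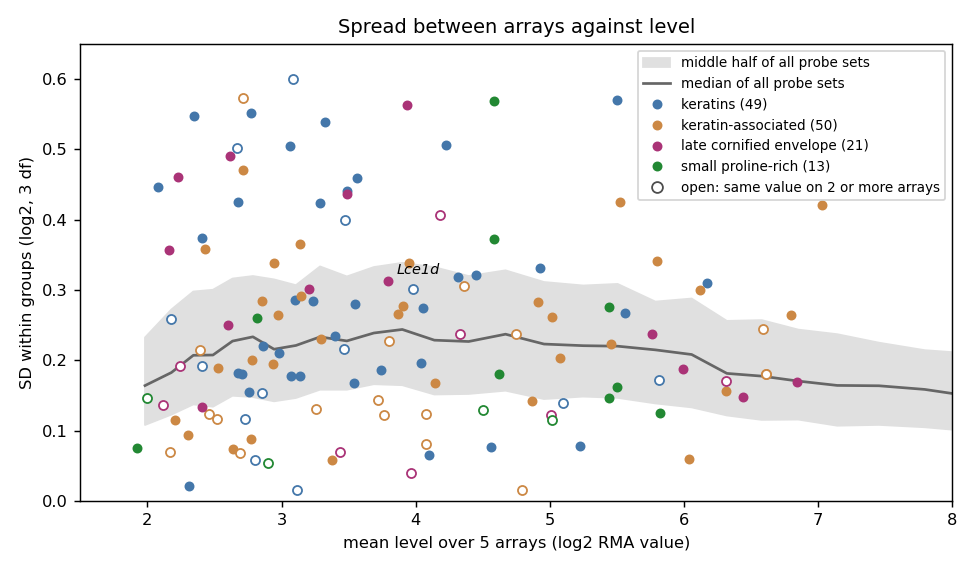
Within-group SD (y axis, log2 units, 3 degrees of freedom) against mean level (x axis, log2 RMA value) for the 133 genes by class, with the median (line) and middle part (band) of all probe sets in 30 level bins. Open points have the same value on 2 or more arrays. Points reach 0.60, and Lce1d lies at 0.31.

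Exposed array 1 stood out among the 5 arrays for the 133 genes. It held the highest value of the 5 arrays for 63 of 133 genes (47.4%), against 22.3% of all probe sets, and the lowest for 11. Among the 32 members in the third level class it was highest for 24 (75%), against 23.5% of all probe sets of that class. In the second class it was highest for 25 of 50 members against 33.3% of probe sets, and in the lowest class for 13 of 50 against 20.1%. The median deviation of the 133 genes from their 5-array mean was 0.17 on exposed array 1, -0.022 and -0.016 on exposed arrays 2 and 3, and -0.058 and -0.051 in the controls. With all arrays the median SD was 0.22 for the 133 genes and 0.19 for all probe sets. Without exposed array 1 it was 0.165 for each. Some wide spreads lay elsewhere: Krt82, Krt1 and Krt72 differed by 1.31, 1.29 and 1.23 between the control arrays. Of the 5 arrays, exposed array 1 also had the highest median (4.88, the others at 4.82 or below), the highest lower quartile (3.18) and the lowest upper quartile (6.78).

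**Figure D3:**
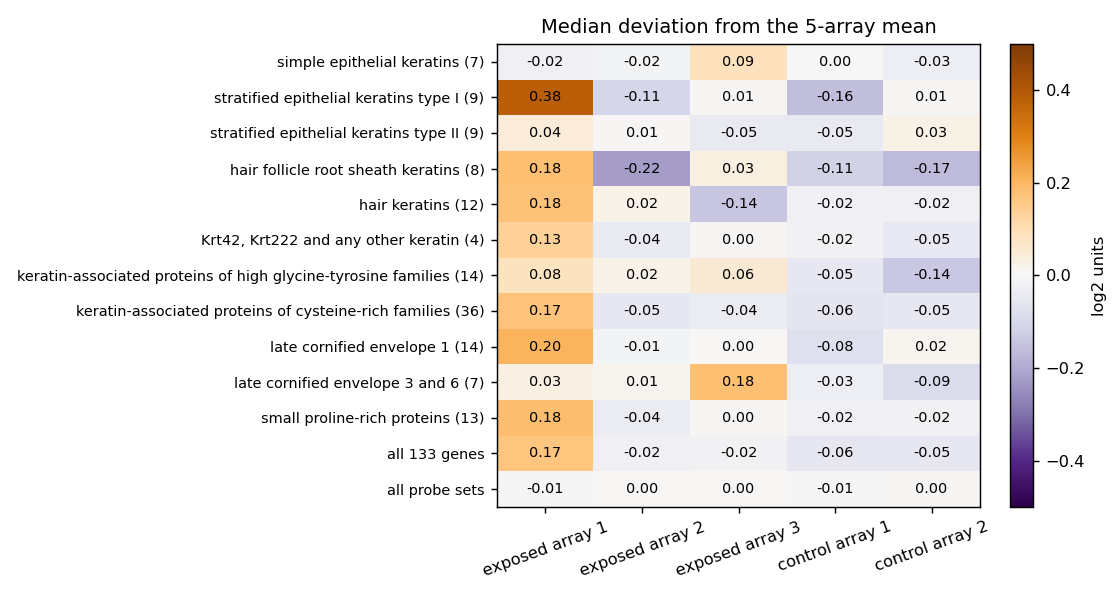
Median deviation of each family from its genes' 5-array mean (colour and printed number, log2 units) for each array (columns), with gene numbers in brackets. Exposed array 1 is at 0.17 over all 133 genes and at 0.38 in the type I keratins of stratified epithelia, where all probe sets are at -0.01.

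The families differed in how far they followed this array. Type I keratins of stratified epithelia had a median deviation of 0.38 on exposed array 1, which was the highest array for 7 of 9 genes. Small proline-rich genes (0.18, highest for 9 of 13), cysteine-rich keratin-associated genes (0.17, 19 of 36) and Lce1 genes (0.20, 7 of 14) followed it as well. Krtap4-8, a cysteine-rich hair protein gene with the highest level of the set, read 7.69 on exposed array 1, 6.71 and 7.01 on exposed arrays 2 and 3, and 6.75 and 6.98 on the control arrays. The other 4 arrays overlap, and exposed array 1 stands above them. Simple epithelial keratins (-0.022) and late cornified envelope 3 and 6 genes (0.028) did not deviate in this way in median.

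No keratin or envelope gene was called between exposed and control samples. With the adjusted threshold of 0.05, limma's calls came to 0 of 133 genes and 0 of 22206 probe sets (0%), and the fit without moderation of the variance also called 0. At an unadjusted p under 0.05 there were 4 of 133 genes (3.01%), against 3.49% of all probe sets. Of these 2 were higher (background 1.82%) and 2 lower (background 1.68%), namely Lce1d and Krt5, and Krtap21-1 and Krtap31-1. Exposed and control values did not overlap for 25 genes (18.8%), against 17.3% of all probe sets. The exposed values lay above in 19 (background 8.5%) and below in 6 (background 8.84%). Over both directions these shares were near those of all probe sets. By direction the 25 separated genes were split unevenly, which all probe sets were not. A difference over 0.5 log2 units was found for 7 genes (5.26%), against 3.12% of all probe sets. The count of 4 was 13 without control array 1 (9.77%, against 6.21% of all probe sets in the same fit) and 7 without exposed array 2 (5.26%, against 4.23%). The 95% interval lay within a 2-fold difference either way for 119 genes (89.5%), against 92.9% of all probe sets.

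**Figure D4:**
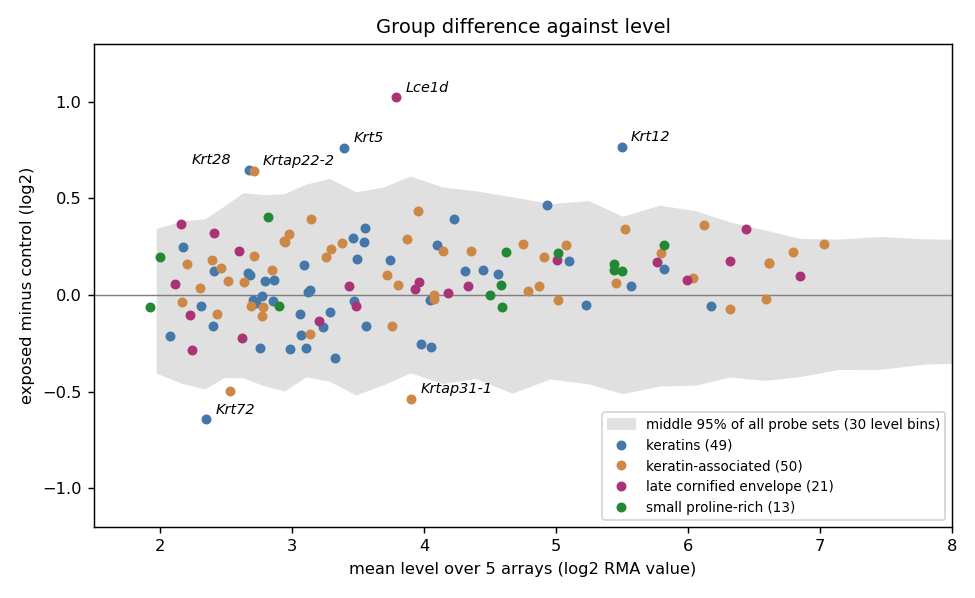
Exposed minus control difference (y axis, log2) against mean level (x axis, log2 RMA value) for the 133 genes by class, over the range that holds the middle 95% of all probe sets in 30 level bins (grey). Lce1d at 1.02 lies highest, followed by Krt12 at 0.77 and Krt5 at 0.76, and Krt72 lies lowest at -0.64.

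The group means of these genes leaned to the exposed side, and exposed array 1 moved with this. A higher exposed mean was found for 88 of 133 genes (66.2%), against 49.9% of all probe sets, with a median difference of 0.088 against -0.00040. Without exposed array 1 the count was 73 (54.9%, against 50.4% of all probe sets) and the median difference 0.023. Without any other single array the count lay between 86 and 94. In the lowest level class 26 of 50 members had a higher exposed mean with all arrays (52%, against 53.2% of probe sets of that class). In the second class 34 of 50 had one (68%, against 58.6%). Genes of the third level class, where exposed array 1 was most often highest, had a higher exposed mean in 27 of 32 cases with all arrays (84.4%, against 47.1% of probe sets of that class). Without that array 24 of 32 were higher (75%, against 48.4% of that class). Keratins were split 26 higher and 23 lower, whereas keratin-associated genes were 36 higher and 14 lower, late cornified envelope genes 16 and 5, and small proline-rich genes 10 and 3. Without exposed array 1, the higher counts were 22 of 49, 32 of 50, 12 of 21 and 7 of 13. The part of exposed array 1 in this lean was not tested beyond leaving it out.

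Lce1d, a late cornified envelope gene of the epidermis, had the largest difference of the 133. It read 4.35, 3.77 and 4.49 on exposed arrays 1 to 3 and 3.21 and 3.15 on control arrays 1 and 2. All exposed values lie above both control values, and the lowest of them is exposed array 2. The exposed mean was 4.20 ± 0.38 (SD, n = 3) and the control mean 3.18 ± 0.04 (SD, n = 2), a difference of 1.02 on the log2 scale (95% interval 0.46 to 1.58), or 2.03-fold. It did not pass the test over all probe sets (limma adjusted p 0.93). By size it ranked 1 of 133 and 4 of 22206, and by limma's p it ranked 28 of 22206. A difference over 2-fold was found for 1 of 133 genes and for 4 of all probe sets (0.018%). The difference was 0.95 without exposed array 1, 1.24 without exposed array 2 and 0.88 without exposed array 3. Without control array 2 the Lce1d difference was 0.99, with an interval of -0.00225 to 1.99.

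The Lce1d difference can be set beside differences between arrays of the same group. For 11 of 133 genes (8.27%), against 3.80% of all probe sets, 2 arrays of 1 group differed by at least the 1.02 of Lce1d. These were chosen by that size and are Sprr2j-ps (1.39), Lce1f (1.36), Krt36, Krtap22-2, Krt15, Lce6a and Krt13 among exposed arrays, and Krt82 (1.31), Krt1, Krt72 and Lce1e among control arrays. A gap between 2 single arrays varies more than a difference between group means, so these are unlike measures. Over all 5 arrays, the range was at least the 1.34 of Lce1d for 6 of 133 genes, Lce1d included. That held for 312 of 22206 probe sets. Within Lce1d itself the exposed arrays spanned 0.72, and its SD of 0.31 was above the median of the set. Pairs of arrays differed by more than 2-fold at 2 to 6 of the 133 genes within a group and at 1 to 7 between groups. Lce1d was over 2-fold apart in the 4 pairs that join exposed array 1 or 3 to a control array, and it differed by 0.56 and 0.62 in the pairs that join exposed array 2 to a control array.

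None of the other 13 Lce1 genes came near the Lce1d difference. They ran from -0.28 for Lce1i to 0.34 for Lce1b, 9 higher and 4 lower. Lce1b read 6.75, 6.56 and 6.42 on exposed and 6.31 and 6.16 on control arrays, and Lce1a1 read 2.60, 2.58 and 2.43 against 2.35 and 2.08. Both were separated between the groups, with intervals of -0.020 to 0.71 and -0.030 to 0.67. Lce1i was separated the other way, at 2.25, 1.89 and 2.25 against 2.31 and 2.52, with an interval of -0.69 to 0.13. Lce1a2, whose promoter window is the most like that of Lce1d, differed by 0.10 (-0.28 to 0.49). Its values of 7.06, 6.92 and 6.67 overlapped those of the control arrays, 6.72 and 6.85. On the chromosome Lce1d lies between Lce1c, which differed by -0.058, and Lce1e, which differed by -0.11. Lce1f read 4.56, 4.07 and 3.20 on the exposed arrays, a span of 1.36 beside a difference between group means of 0.033. The remaining genes differed by 0.0092 (Lce1g), 0.17 (Lce1h), 0.079 (Lce1j), 0.067 (Lce1k), -0.14 (Lce1l) and 0.057 (Lce1m). The sign turned with at least 1 array left out for Lce1c, Lce1e, Lce1f, Lce1g, Lce1j, Lce1l and Lce1m. These genes are close copies, and how far their probe sets read one another's RNA was not tested.

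**Figure D5:**
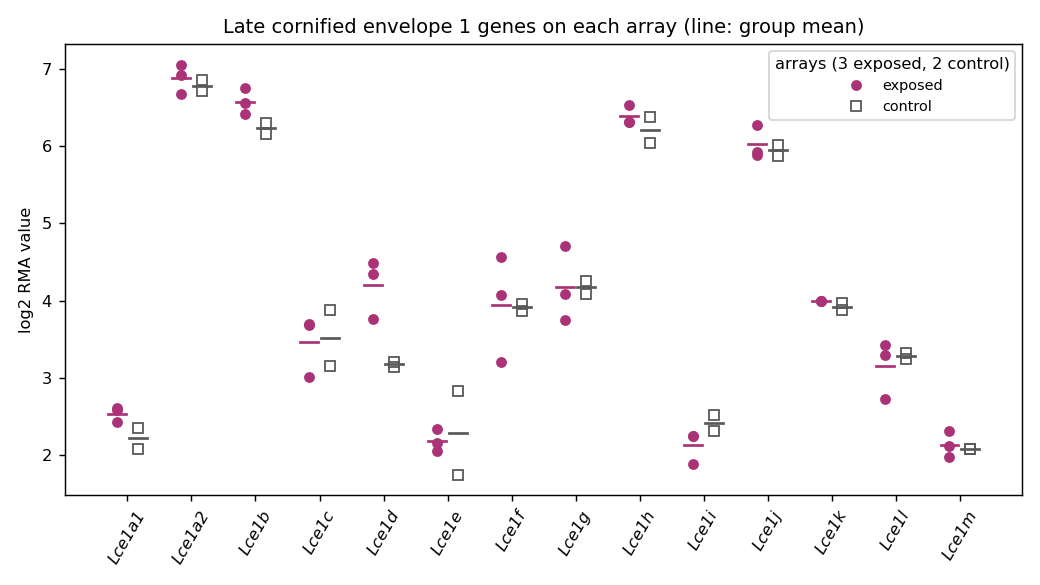
Log2 RMA values (y axis) of the 14 Lce1 genes (x axis) on each array, filled circles for the 3 exposed and open squares for the 2 control arrays, with lines at the group means. Lce1d shows 3.77 to 4.49 on exposed arrays above 3.15 and 3.21 on control arrays, and most other genes overlap or lie close.

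Among keratins, Krt5 and Krt12 stood next to Lce1d in size. Krt5, the type II keratin of basal keratinocytes, read 3.67, 3.71 and 3.73 on exposed arrays and 2.65 and 3.22 on control arrays. The exposed arrays agree closely, and the lowest value belongs to control array 1. Its difference was 0.76 (0.30 to 1.22; limma adjusted p 0.93), while its filament partner Krt14 differed by 0.12 (-0.45 to 0.69), with overlapping groups. Krt12, the type I keratin of the cornea, read 6.42, 5.45 and 5.55 on exposed and 5.49 and 4.58 on control arrays. Its groups overlap, and the difference of 0.77 (-0.16 to 1.69) goes with a high exposed array 1 and a low control array 2, and was 0.46 without the former. The upper epidermal pair differed by -0.0052 (Krt1) and 0.13 (Krt10), and Krt2, a late epidermal type II keratin, by -0.032.

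Simple epithelial keratins held some of the higher keratin values without a group difference that passed. Krt18 read 5.78, 6.18 and 6.49 on exposed and 6.35 and 6.07 on control arrays, with the groups overlapping and a difference of -0.059 (-0.61 to 0.50). Its partner Krt8 differed by -0.25 (-0.80 to 0.29) and Krt19, a type I keratin of ducts, by 0.19. Krt7, a keratin of glandular epithelia, read 5.40, 4.67 and 5.28 against 4.77 and 4.53, a difference of 0.47 (-0.12 to 1.05) in which exposed array 2 lies between the control values. Krt80 differed by 0.049 at a level of 5.56. The sign of Krt18, Krt19 and Krt80 turned with at least 1 array left out, as did that of Krt1, Krt2, Krt10 and Krt14 above.

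Hair keratins and those of the root sheath were dim, with all 8 root sheath and all 12 hair keratins at or below the median of all probe sets. In the sheath, Krt28 differed by 0.65 (-0.067 to 1.36) and Krt72 by -0.64 (-1.54 to 0.25). Krt72 read 2.35, 2.10 and 1.83 on exposed arrays and 2.12 and 3.35 on control arrays, so control array 2 alone stood apart and the groups overlap. Krt73 and Krt74, the sheath keratins of highest level, differed by 0.11 and 0.27. In the hair shaft, the difference was largest for Krt86, at 0.35, and Krt40 was separated between the groups at 4.17, 4.14 and 4.29 against 3.93 and 3.94. Krt39 differed by -0.27. Keratins outside these families were Krt42 (-0.054), Krt88 and Krt90 (0.18 each) and Krt222 (-0.28).

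Keratin-associated genes gave differences in both directions. In the families rich in glycine and tyrosine, 12 of 14 genes had a higher exposed mean, against 49.9% of all probe sets. Without exposed array 1 the count was also 12, and without control array 2 it was 10. Groups were separated upwards for 5 of the 14 and downwards for 1 (42.9%, against 17.3%). In the cysteine-rich families 24 of 36 were higher, and 20 without exposed array 1. Of the glycine and tyrosine families, Krtap22-2 read 2.57, 2.57 and 3.77 on exposed and 2.25 and 2.40 on control arrays. The groups are separated, but exposed array 3 made most of its difference of 0.64 (-0.29 to 1.57), which was 0.24 without that array. Krtap21-1 was lower at 2.32, 2.36 and 2.31 against 2.59 and 3.06, a difference of -0.50 (-0.90 to -0.089; limma adjusted p 0.93), with control array 2 the highest. Krtap19-5 differed by 0.43 and Krtap6-5 by 0.061, and Krtap19-3, the one of highest level, by 0.088. Among the cysteine-rich families Krtap31-1 was lower at 3.38, 4.05 and 3.63 against 4.19 and 4.26, a difference of -0.54 (-1.05 to -0.021; limma adjusted p 0.93) with the groups separated. Krtap4-8 and Krtap4-2 differed by 0.26 and 0.22, and by -0.012 and 0.041 without exposed array 1.

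The remaining envelope genes differed by less than 0.5 on the log2 scale. Small proline-rich genes ran from -0.063 to 0.41, with 4 of 13 separated upwards and 0 downwards, where 8.5% and 8.84% of all probe sets were. Sprr3, expressed in the oral and oesophageal lining, differed by 0.41 (-0.086 to 0.90) at 2.80, 2.87 and 3.26 against 2.77 and 2.37, with the groups only just apart. Sprr2b, of highest level among them, was at 6.0, 5.87 and 5.89 against 5.53 and 5.80, a difference of 0.26, and Sprr2i differed by 0.13. Late cornified envelope 3 and 6 genes ran from -0.22 to 0.37, with 0 of 7 separated (17.3% of all probe sets were). Lce3f, at 0.37, read 2.77 on exposed array 3, where the other 4 arrays lay between 1.81 and 2.17. Lce3c and Lce3d differed by 0.17 and 0.18.

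Other genes of the keratinocyte programme showed no called change either. Of 36 measured cornified envelope and epidermal differentiation genes, 22 were higher and 14 lower, with a median difference of 0.084 (0.017 without exposed array 1), 0 called and 3 at an unadjusted p under 0.05, where 3.49% of all probe sets were. Of these 3, S100a9 at 0.50 (0.20 to 0.80) and Evpl at 0.46 (0.096 to 0.83) were higher, and hornerin (Hrnr) was lower. S100a9 and Evpl were named after their values were seen. Hrnr had means of 2.13 ± 0.24 (SD, n = 3) in exposed and 2.70 ± 0.27 (SD, n = 2) in control samples. The calcium-binding gene S100a8, which is not among the 3, was at 5.85 ± 0.92 against 5.30 ± 0.56, a difference of 0.55 (-0.74 to 1.84). Desmosome and junction genes were 14 higher and 11 lower (median 0.079), with desmocollin-2 (Dsc2) at 0.82 (0.22 to 1.42) and desmoplakin (Dsp) at -0.39, where control array 2 alone was high and the sign turned without it (0.059). Epithelial regulators were 11 higher and 9 lower (median 0.021), with Ovol2 at 0.58 and Klf5 at 0.56, and Trp63 at -0.23. Cebpa, at -0.24, is counted both here and among the adipocyte markers, so this list is not particular to keratinocytes. Hair follicle regulators were 6 higher and 4 lower, with Hoxc13, a regulator of hair keratin genes, at 0.38 and Foxn1 at 0.35, where control array 1 alone was low and the sign turned without it (-0.17). Other intermediate filament genes and their partners were 9 higher and 8 lower, with the lens gene Bfsp1 at 0.37 and the neurofilament gene Nefm at -0.35. Fibroblast and preadipocyte markers were lower for 11 of 12 (median -0.097), and 3 of 12 were higher without exposed array 1. Of the 12, 11 lie in the highest level class. There 40.7% of probe sets had a higher exposed mean (48.1% without exposed array 1), with a median difference of -0.032. Dlk1 was at -0.28 and S100a4 at -0.25, and 0 of the 12 were called. Of 10 macrophage and B cell markers 4 were higher and 6 lower, with Cd79b and Mzb1 at -0.37 each. For Cd79b control array 2 alone was high, and the sign turned without it (0.23). Adipocyte markers, 11 of 13 in the highest level class as well, were 4 higher and 9 lower (median -0.036). Among them were Retn (resistin) at 0.46 and Plin1 at -0.25. Over these lists 0 genes passed limma's test adjusted over all probe sets.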

How the data were processed

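Total RNA of 5 samples was hybridised to 5 mouse arrays, and the authors deposited 1 log2 expression value per probe set and array, made by RMA in Partek, as the submitters' processing notes record (RMA as a method corrects background, quantile-normalizes and summarises probes). No software version or annotation build is given in the sources used here. RMA compresses differences between dim signals, and precision is limited by the 5 arrays. Symbols came from the platform annotation (19572 probe sets with 1 symbol, 2634 with none, 0 with several), and all 133 genes were found in RefSeq. All 22206 probe sets entered 1 model with group as its term (R 4.3.3, limma 3.58.1, empirical Bayes variances, two-sided, Benjamini-Hochberg adjustment), and this code was tested on simulated data. Differences are exposed minus control, and 95% intervals come from that fit. Promoter windows were aligned with Biopython 1.88. Named genes are all Lce1 genes, per family the 2 of highest level and the 1 of largest difference, the 10 largest differences, those at an unadjusted p under 0.05, the 2 largest differences of each list, and fixed markers; genes named outside this rule were chosen after their values were seen, which holds for the ties, separated groups and widest spreads. Members and lists were chosen with earlier results of these data known. Alternatives covered left-out arrays, centring, normalization, filtering, variance models, weights and blocks.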

Additional observations from a re-analysis of the deposited data

How the results depend on the processing

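The Lce1d difference stayed above 0 and below the threshold in all 12 alternatives that could give it (a filter at the median level removes it), with limma adjusted p-values from 0.79 to 0.98. It was 0.88 to 1.24 with 1 array left out. As all exposed values lie above both control values, leaving out an array, weighting or blocking could not turn its sign. The variance models leave the difference itself unchanged. With a replicate block it was 0.88 (limma adjusted p 0.96). Exposed array 3 shares its number with no control, so that block takes nothing from it and repeats the difference without exposed array 3, with 1 residual degree of freedom. The groups share 2 replicate numbers, and deviations of same-numbered arrays correlated at -0.014 and -0.032. With 2 control arrays, their deviations mirror each other exactly, so these values cannot show whether the samples were paired. Counts called at an adjusted p under 0.05 were 0 throughout. The count of 4 at an unadjusted p under 0.05 was 3 to 13 with 1 array left out, 1 among the 33 members above the median level, where it was 0 without that filter (the cause was not tested), and 6 with the replicate block. Groups separated at 25 genes, and at 37 to 69 with 1 array left out, where fewer arrays must be apart. The median difference was 0.023 to 0.13 with 1 array left out. With the replicate block it was 0.13, again the value without exposed array 3. With all arrays centred on their medians, 85 genes had a higher exposed mean, and with quantile normalization repeated 82; that count was chosen after seeing the data. Fits without a control array take the spread of the lone control from the exposed arrays. Of 70 named genes besides Lce1d, 47 kept their sign in every fit and 23 changed it in at least 1, the largest of them Dsp at -0.39. Dim values limit what RMA can resolve.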
